A study of Mus musculus with 6 samples.

Results

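The kinases and adaptors that sit directly under the T cell receptor were examined in mouse lung: Lck, Fyn, Zap70 and Txk (kinases), Lat, Lcp2, Sh2d1a and Themis (adaptors) and Ptpn22 (a phosphatase). These 9 genes were taken by symbol from a table of 57180 genes, 16989 of which were expressed well enough to be tested, and all 9 were among those tested. The data come from 6 lung samples of animals exposed to cigarette smoke, in a study that models chronic obstructive pulmonary disease. 3 samples carried the genotype FTO_OE, overexpression of FTO, the enzyme that removes the N6-methyladenosine mark from RNA, and 3 were wild type (WT). The question of the comparison was which lung transcripts differ when FTO is overexpressed during smoke exposure. Smoke was common to both groups, so nothing here measures an effect of smoke. The labels used here give neither the means of overexpression nor the cells it acts in, nor the animals' age, sex or length of exposure. Nor do they tie each library to its own mouse, so the p-values measure only the spread between these samples, which may be technical.

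When a T cell receptor binds its antigen, the Src-family kinases Lck and Fyn phosphorylate the CD3 chains of the receptor, the kinase ZAP-70 docks there and in turn phosphorylates the adaptors LAT and SLP-76 (encoded by Lcp2), which assemble the enzymes that raise calcium and start transcription. Tec-family kinases such as Txk act at that assembly, THEMIS and SAP (encoded by Sh2d1a) tune the signal, and the phosphatase encoded by Ptpn22 removes phosphates from Lck and ZAP-70. Most of these genes are read mainly in T cells and natural killer (NK) cells, while Fyn is used by many cell types, Ptpn22 by many leukocytes and Lcp2 also by myeloid cells, mast cells and platelets.

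Library totals ran from 16731850 to 21444907 estimated read counts. Fto itself stood at 666.1, 650.1 and 740.8 CPM (read counts scaled to library size, with the trimmed mean of M-values factor, TMM) in FTO_OE lungs, against 66.2, 69.9 and 68.6 CPM in WT lungs, so the libraries carried the Fto level their labels call for. Lung epithelial genes were abundant in both groups, with a summed level of 5 markers of 32536 to 39603 CPM in FTO_OE lungs and 41007 to 46536 CPM in WT lungs. T cell transcripts were present as well, as given below. In bulk tissue, more cells of a type and more RNA per cell cannot be told apart.

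Promoter windows of the genes at both ends of the range of fold changes are shown first, because Lck was the 1 gene of the set that passed the test, Lat and Themis are T cell adaptors with large fold changes, and Fyn had the smallest. RefSeq windows on GRCm38.p6 (250 bases before to 50 after a transcript start) were found for 8 of the 9 genes, 14 windows in all. Capitals mark matches on either strand to GGAAGT (ETS factors), TGTGGT (RUNX factors), CTTTGA (TCF factors) or CAGGTG (an E-box). Lck has a distal and a proximal promoter, the first on chr4:129573592-129573891 and the second on chr4:129558323-129558622, both on the minus strand.
Lck distal: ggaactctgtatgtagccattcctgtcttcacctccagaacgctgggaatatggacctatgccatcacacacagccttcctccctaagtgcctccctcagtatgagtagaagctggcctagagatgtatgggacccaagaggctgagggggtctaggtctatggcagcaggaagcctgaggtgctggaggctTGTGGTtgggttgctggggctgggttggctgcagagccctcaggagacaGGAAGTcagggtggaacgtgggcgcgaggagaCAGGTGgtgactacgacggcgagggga
Lck proximal: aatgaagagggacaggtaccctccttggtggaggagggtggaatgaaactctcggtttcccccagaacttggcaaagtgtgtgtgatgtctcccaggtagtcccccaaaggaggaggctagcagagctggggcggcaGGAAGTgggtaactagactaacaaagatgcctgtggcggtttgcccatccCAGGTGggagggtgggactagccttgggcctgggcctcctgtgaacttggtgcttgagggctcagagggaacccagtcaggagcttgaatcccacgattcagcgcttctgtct
The Lat window is chr7:126369519-126369818 on the minus strand, that of Themis chr10:28668110-28668409 on the plus strand and that of Fyn chr10:39369549-39369848 on the plus strand.
Lat: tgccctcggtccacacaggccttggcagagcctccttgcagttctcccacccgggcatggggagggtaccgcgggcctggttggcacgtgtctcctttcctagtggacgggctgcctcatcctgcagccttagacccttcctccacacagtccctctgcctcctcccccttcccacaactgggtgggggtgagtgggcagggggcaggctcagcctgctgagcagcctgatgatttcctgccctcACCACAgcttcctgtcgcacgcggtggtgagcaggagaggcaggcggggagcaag
Themis: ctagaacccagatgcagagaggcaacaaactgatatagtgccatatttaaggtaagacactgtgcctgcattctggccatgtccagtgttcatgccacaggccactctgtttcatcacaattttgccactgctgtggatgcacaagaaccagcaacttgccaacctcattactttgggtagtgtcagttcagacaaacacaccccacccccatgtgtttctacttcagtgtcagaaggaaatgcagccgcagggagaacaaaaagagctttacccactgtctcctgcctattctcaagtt
Fyn: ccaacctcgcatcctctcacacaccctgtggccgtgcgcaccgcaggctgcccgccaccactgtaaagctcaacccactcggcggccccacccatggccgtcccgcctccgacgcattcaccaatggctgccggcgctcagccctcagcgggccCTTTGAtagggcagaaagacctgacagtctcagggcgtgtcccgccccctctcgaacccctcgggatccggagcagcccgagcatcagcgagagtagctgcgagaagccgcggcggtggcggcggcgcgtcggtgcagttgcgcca
Both Lck windows hold GGAAGT, beginning 9 bases before the start in the distal one and 113 before it in the proximal one, and both hold CAGGTG. The Lat window holds TGTGGT on its opposite strand, the Fyn window holds CTTTGA, and the Themis window holds none of the 4 motifs. Over all windows of the set, GGAAGT was in 6 of 14, TGTGGT in 5, CTTTGA in 4 and CAGGTG in 4. Among all 32851 promoter windows in the table the shares were 23.8%, 16.8%, 16% and 20.2% in the same order. Counts per gene do not separate transcripts from the 2 Lck promoters.

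Expression of all 9 genes was higher in each FTO_OE library than in any WT library. Lck alone passed the test across all genes, with a 4.89-fold difference (95% interval 3.27 to 7.33; edgeR adjusted p = 0.0300). That is 1 of 9, where 0.0765% of all genes tested were called higher. The groups did not overlap for 9 of 9, against 7.96% of genes tested that had every FTO_OE library above every WT library. 9 of 9 had an unadjusted edgeR p below 0.05 in the higher direction, as did 5.77% of genes tested, and 7 of 9 were at least 2-fold higher, as were 2.73% of genes tested. The 9 genes were chosen with earlier results of these data known, so these shares describe the set and are no test of it. The median log2 fold change was 1.44 over the 9 genes and 0.0069 over all genes tested. Summed over the set, the level was 277.8, 301.8 and 435.7 CPM in FTO_OE lungs and 166.6, 151.6 and 134.7 CPM in WT lungs.

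**Figure D1:**
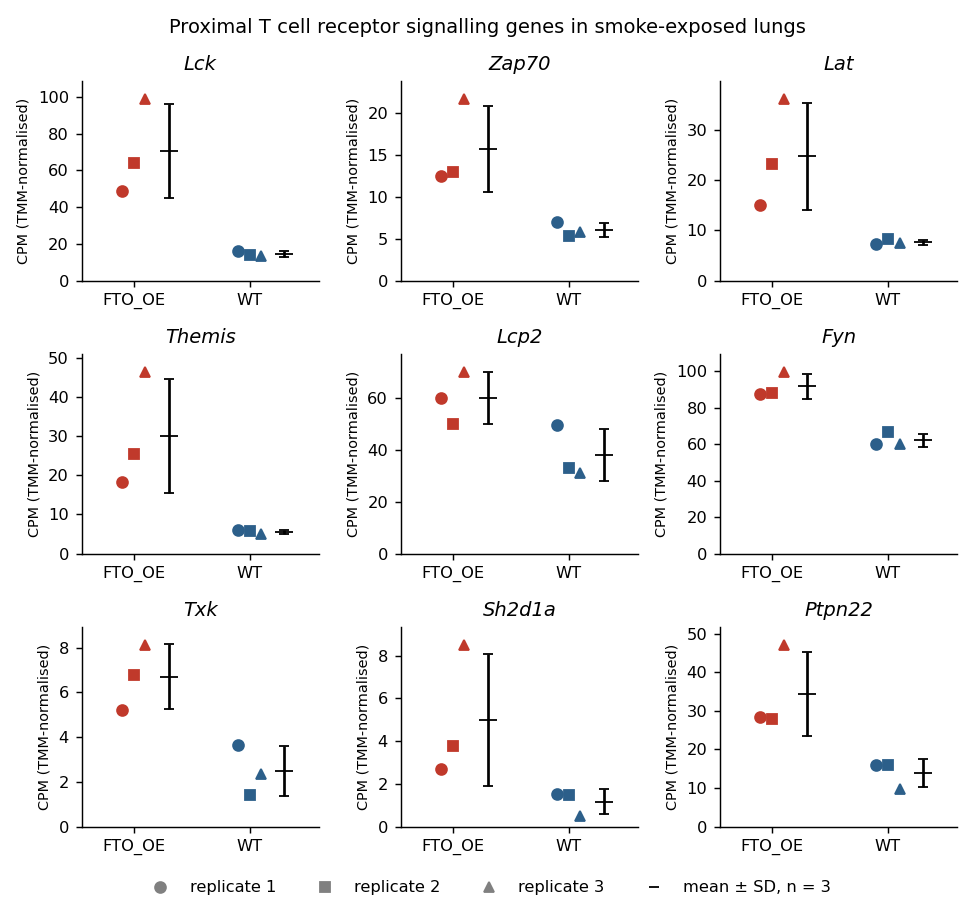
TMM-normalised CPM (vertical axes, linear from 0) of each gene in every library, FTO_OE left and WT right; symbols are replicates and the black bars are mean ± SD (n = 3). All FTO_OE points lie above all WT points, FTO_OE replicate 3 is the highest point for each of the 9 genes, and the gap is narrowest for Lcp2 (49.9 against 49.6 CPM).

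Lck, the Src-family kinase bound to the CD4 and CD8 co-receptors, was measured at 48.6, 64.0 and 98.8 CPM in FTO_OE lungs, against 15.9, 14.1 and 13.1 CPM in WT lungs. The lowest FTO_OE library was 3.05-fold above the highest WT library. The spread was wide among FTO_OE lungs, with a coefficient of variation of 36.5%, and narrow among WT lungs, at 9.81%. Fyn, the related kinase of broader use, was at 87.3, 87.9 and 99.4 CPM in FTO_OE lungs and at 59.9, 66.3 and 59.8 CPM in WT lungs. Its difference was 1.48-fold (95% interval 1.28 to 1.70; edgeR adjusted p = 0.0921), small but steady, as the libraries of a group varied by 7.43% in FTO_OE and 6.06% in WT lungs. Zap70, which encodes the kinase that carries the signal from the CD3 chains to the adaptors, was at 12.4, 13.0 and 21.7 CPM in FTO_OE lungs, against 6.99, 5.36 and 5.78 CPM in WT lungs. It was 2.60-fold higher (95% interval 1.76 to 3.86) and did not pass (edgeR adjusted p = 0.109). Txk, a Tec-family kinase, was weakly expressed, at 5.23, 6.77 and 8.12 CPM in FTO_OE lungs and 3.63, 1.42 and 2.37 CPM in WT lungs, from 103 to 176 counts a library in the first group and 27 to 67 in the second. The fitted difference for Txk was 2.71-fold (95% interval 1.55 to 4.74; edgeR adjusted p = 0.207). Of the 4 kinases, Lck and Fyn bound the range of fold changes.

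Among the adaptors, Themis, needed for T cell selection in the thymus, had the largest fold change of the set. Its levels were 18.2, 25.4 and 46.3 CPM in FTO_OE lungs and 5.96, 5.67 and 4.90 CPM in WT lungs. The groups stood 3.05-fold apart at their nearest libraries, and the fitted difference was 5.44-fold (95% interval 3.17 to 9.33), which missed the threshold (edgeR adjusted p = 0.0702). Lat, the membrane scaffold on which the signalling complex is built, was at 15.0, 23.1 and 36.1 CPM in FTO_OE lungs, against 7.26, 8.19 and 7.37 CPM in WT lungs. For Lat the fold change was 3.25 (95% interval 2.02 to 5.23; edgeR adjusted p = 0.107), and the WT libraries were within 1.13-fold of each other while the FTO_OE libraries spanned 2.41-fold. Sh2d1a, which encodes the adaptor SAP that couples SLAM-family receptors to Fyn, was the least abundant of the set in WT lungs. It was at 2.69, 3.75 and 8.48 CPM in FTO_OE lungs and 1.52, 1.47 and 0.495 CPM in WT lungs, and WT replicate 3 held 9 counts. The fitted difference was 4.27-fold, with a wide 95% interval of 1.77 to 10.3 (edgeR adjusted p = 0.241). Lcp2, which encodes SLP-76, partner of LAT and also an adaptor of platelets, mast cells and myeloid cells, was at 59.9, 49.9 and 69.8 CPM in FTO_OE lungs and 49.6, 33.0 and 31.1 CPM in WT lungs. Its nearest libraries were level, FTO_OE replicate 2 and WT replicate 1 differing by a ratio of 1.01, and the fitted difference was 1.58-fold (95% interval 1.15 to 2.17; edgeR adjusted p = 0.305).

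Ptpn22, the phosphatase that dampens Lck and ZAP-70, was at 28.4, 28.0 and 47.0 CPM in FTO_OE lungs and 15.9, 16.0 and 9.74 CPM in WT lungs. It was 2.49-fold higher (95% interval 1.63 to 3.80; edgeR adjusted p = 0.137). The inhibitor of the set was thus above its WT levels in the same libraries as the kinases it acts on.

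Divided by the length of their exons, the genes had a different order of level in each group. In FTO_OE lungs Lck had the highest mean, 24.1 ± 8.78 CPM per kilobase of exon (SD, n = 3), followed by Fyn at 21.0 ± 1.56, and these 2 did not differ beyond their spread. Lcp2 came next at 13.4 ± 2.23, then Lat at 8.93 ± 3.84, Zap70 at 5.25 ± 1.73 and Ptpn22 at 5.09 ± 1.61 CPM per kilobase. The spreads of the last 3 overlapped, but within each FTO_OE library Lat was above both Zap70 and Ptpn22. Lat was at 5.42, 8.34 and 13.0, Zap70 at 4.16, 4.35 and 7.24 and Ptpn22 at 4.19, 4.13 and 6.94 CPM per kilobase. Themis was at 2.57 ± 1.25, Sh2d1a at 0.904 ± 0.560 and Txk at 0.612 ± 0.132 CPM per kilobase. In WT lungs Fyn led at 14.2 ± 0.861 CPM per kilobase, above Lcp2 at 8.50 ± 2.28 and Lck at 4.92 ± 0.482 (SD, n = 3). Lower in WT lungs stood Lat at 2.75 ± 0.184, Ptpn22 at 2.05 ± 0.527 and Zap70 at 2.02 ± 0.283 CPM per kilobase, of which Ptpn22 and Zap70 were level. Themis followed at 0.472 ± 0.0472, and Txk at 0.226 ± 0.101 and Sh2d1a at 0.211 ± 0.105 CPM per kilobase did not differ beyond their spread. Exon lengths are the union over all transcripts in GENCODE M21, which overstates the length of genes whose long transcripts are little used.

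The libraries of a group were ordered alike for most of the set. FTO_OE replicate 3 was the highest of its group for 9 of 9 genes, and FTO_OE replicate 1 the lowest for 7, all but Lcp2 and Ptpn22. Among WT lungs, replicate 3 was the lowest for 6 genes and replicate 1 the highest for 6. T cell marker levels followed that order: the sum of Cd3d, Cd3e, Cd3g and Cd247, the CD3 chains, was 87.0, 109.6 and 188.9 CPM in FTO_OE lungs and 44.2, 39.2 and 29.0 CPM in WT lungs. Haemoglobin transcripts, which come with blood, ran against it in FTO_OE lungs, with a sum of 4 genes of 33719, 17264 and 3643 CPM, and were 23185, 15674 and 8500 CPM in WT lungs. The part of blood content in these differences was not tested.

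Leaving out FTO_OE replicate 3 lowered the fold change of each gene. Without it Lck was 3.90-fold higher with its call kept (edgeR adjusted p = 0.0257), Themis 3.95-fold (adjusted p = 0.0508), Lat 2.50-fold, Zap70 2.11-fold and Ptpn22 2.03-fold. Sh2d1a moved furthest, to 2.76-fold. The call of Lck was kept without FTO_OE replicate 1 (adjusted p = 0.0225), where Lat and Themis passed too (adjusted p = 0.0370 for both), and lost without FTO_OE replicate 2 or any 1 of the 3 WT libraries. Over the 6 fits without 1 library the fold change of Lck ran from 3.90 to 5.66 and its edgeR adjusted p from 0.0225 to 0.172. DESeq2 called 9 of 9 genes higher, where 1.98% of genes were called higher, and limma-voom called 0 of 9, where 0.0118% were; both kept all 9 above WT, and edgeR had 9 of 9 at an unadjusted p under 0.05.

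**Figure D2:**
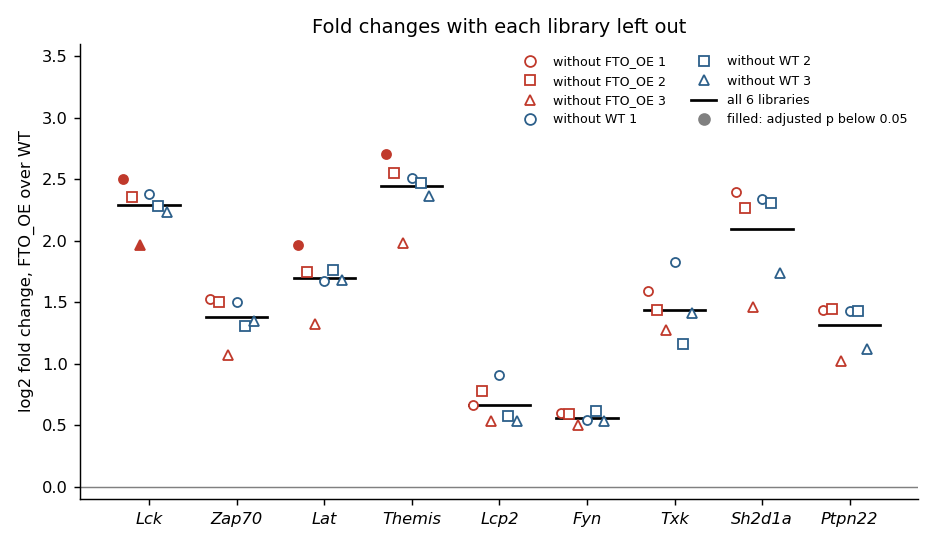
Log2 fold change (FTO_OE over WT, edgeR) of each gene with all 6 libraries (black line) and with each library left out (red symbols, an FTO_OE library; blue symbols, a WT library); filled symbols have an adjusted p below 0.05. All values stay above 0, which groups without overlap all but fix in advance. The fits without FTO_OE replicate 3 give the lowest value for 8 of the 9 genes, Txk being lowest without WT replicate 2.

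Set against the CD3 chains of the same library, the genes differed in direction. Lck stood at log2 ratios of -0.84, -0.78 and -0.93 to the CD3 sum in FTO_OE lungs and -1.47, -1.47 and -1.14 in WT lungs, and Themis at -2.26, -2.11 and -2.03 against -2.89, -2.79 and -2.57 in WT lungs. Relative to CD3, Lck was therefore 1.43-fold and Themis 1.53-fold higher in FTO_OE lungs, and neither pair of groups overlapped. Fyn went the other way, at 0.0042, -0.32 and -0.93 in FTO_OE lungs and 0.44, 0.76 and 1.04 in WT lungs, a ratio of 0.447 between the groups. Lcp2 had a ratio of 0.485 and Ptpn22 one of 0.750 relative to CD3, again without overlap. Each of these 5 differences had a two-sided exact permutation p of 0.1, the smallest that 3 libraries against 3 allow, and a Benjamini-Hochberg value of 0.18 over the 9 genes, so none can pass 0.05. For Zap70, Lat, Txk and Sh2d1a the groups overlapped, with ratios of 0.768, 0.926, 0.870 and 1.29 and exact permutation p of 0.2, 0.7, 0.6 and 0.6. The ratio of Lat was above 1 without WT replicate 3 and that of Sh2d1a below 1 with 0.5 CPM added. As context, the fold changes of the CD3 chains were 3.73 for Cd3d, 3.50 for Cd3e, 3.27 for Cd3g and 3.32 for Cd247, those of the co-receptor genes Cd8a, Cd8b1 and Cd4 7.03, 8.58 and 2.13.

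**Figure D3:**
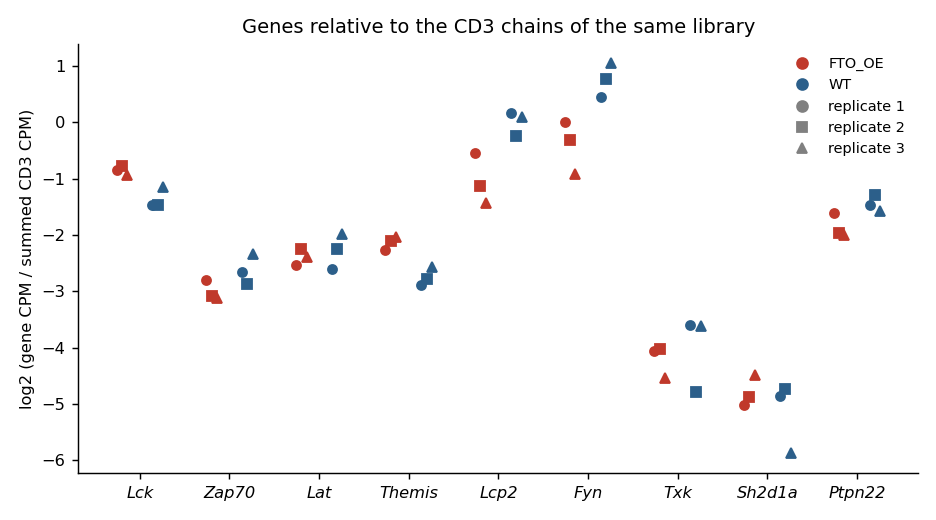
Log2 ratio of each gene's CPM to the summed CPM of Cd3d, Cd3e, Cd3g and Cd247 in the same library (vertical axis), FTO_OE left of WT for each gene; symbols are replicates. FTO_OE points lie above all WT points for Lck and Themis and below all of them for Lcp2, Fyn and Ptpn22, and the groups overlap for the other 4 genes.

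For 7 members of the set, all but Lck and Fyn, a relative that does a like job elsewhere was compared: Syk and Lat2 in B and myeloid cells, Blnk chiefly in B cells, Btk in B and myeloid cells, Themis2 in B cells and macrophages, Sh2d1b1 in NK and myeloid cells, and Ptpn12 in many cell types. In none of these 7 relatives did the edgeR test pass, and the fold changes lay between 0.814 for Blnk and 1.12 for Themis2. Syk was at 100.6, 82.5 and 83.1 CPM in FTO_OE lungs and 104.8, 88.9 and 78.6 CPM in WT lungs, a fold change of 0.977 (95% interval 0.795 to 1.20). Within a library, the log2 ratio of Zap70 to Syk was -3.01, -2.66 and -1.94 in FTO_OE lungs and -3.91, -4.05 and -3.77 in WT lungs. That of Lck to Fyn was -0.84, -0.46 and -0.0081 in FTO_OE lungs against -1.91, -2.23 and -2.19 in WT lungs, a 3.19-fold difference between the groups. The corresponding difference was 2.58-fold for Zap70 to Syk, 2.85-fold for Lat to Lat2, 4.47-fold for Themis to Themis2 and 4.67-fold for Sh2d1a to Sh2d1b1. It was 2.67-fold for Ptpn22 to Ptpn12, 2.56-fold for Txk to Btk and 1.92-fold for Lcp2 to Blnk. All 8 ratios were higher in each FTO_OE library than in any WT library, with a two-sided exact permutation p of 0.1 for each, the smallest possible, and 0.1 after Benjamini-Hochberg adjustment over the 8 pairs. The groups did not overlap for any gene of the set, and the 7 relatives outside it differed little. These ratios therefore largely restate the differences of the set itself and are no separate result.

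**Figure D4:**
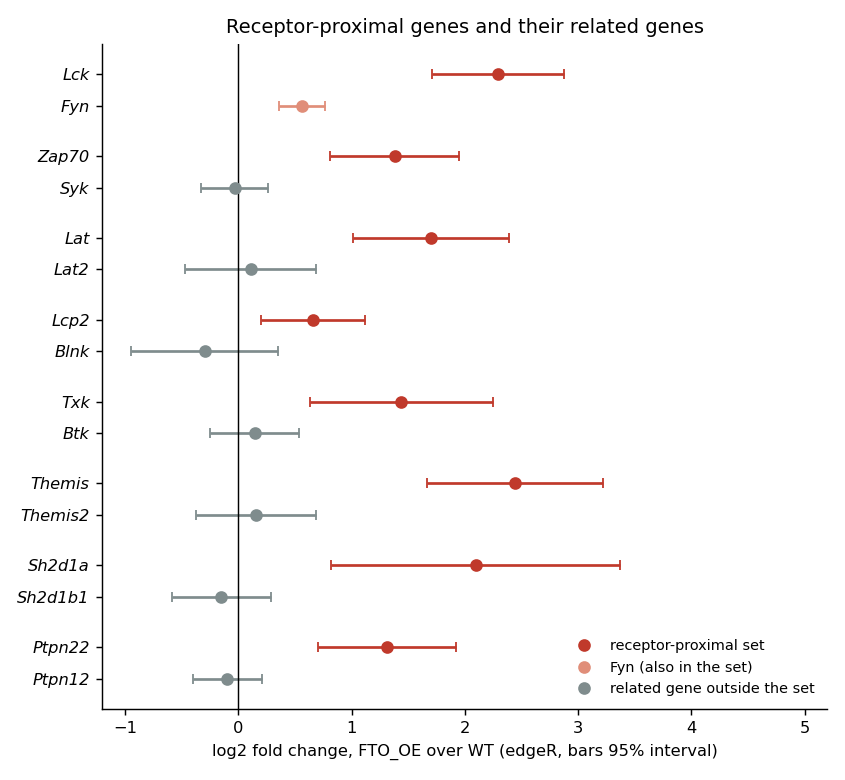
Log2 fold change (FTO_OE over WT, edgeR; bars, 95% interval) of each gene in red with its relative below it in grey; Fyn, paired with Lck, is itself in the set. Intervals of the red points lie above 0 and those of the grey points include it, from Blnk at a fold change of 0.814 to Themis2 at 1.12.

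Of 29 other genes of the pathway, 0 passed over all genes, 15 had an unadjusted edgeR p below 0.05 in the higher direction and 0 in the lower, beside 5.77% and 3.67% of genes tested, and the median log2 fold change was 0.39. Among those with the smallest p were Sh2d2a, which encodes an Lck-binding adaptor, Skap1, an adaptor of integrin activation, and Prkcq, the protein kinase C of the T cell contact zone. Sh2d2a was at 9.91, 14.2 and 20.9 CPM in FTO_OE lungs and 5.09, 5.62 and 4.62 CPM in WT lungs, a fold change of 2.93 (95% interval 1.90 to 4.53; edgeR adjusted p = 0.107). The fold change was 2.97 for Skap1 and 2.12 for Prkcq. The members of this list whose log2 fold change was nearest 0 were the calcium channel gene Orai1, with a fold change of 0.996, and the Csk-binding scaffold gene Pag1, with one of 0.995.

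Negative regulators of the receptor ranged as widely. 0 of 15 passed over all genes and 7 had an unadjusted edgeR p below 0.05 in the higher direction and 0 in the lower, beside 5.77% and 3.67% of genes tested, with a median log2 fold change of 0.37. Those with the smallest p were the following: Ubash3a, a suppressor of receptor signalling, had a fold change of 3.09 (95% interval 1.89 to 5.05; edgeR adjusted p = 0.121), Sla2, an adaptor that limits surface receptor, one of 3.06, the inhibitory receptor gene Cd6 one of 2.92 and the docking protein gene Dok2 one of 2.18. The members nearest a log2 fold change of 0 were Rasa1 at 0.033 and the ubiquitin ligase gene Cbl at 0.10. Among 9 genes of SLAM-family receptors and adaptors, 0 passed over all genes. An unadjusted edgeR p below 0.05 in the higher direction was found for 4, beside the same 5.77% of genes tested. These were Ly9 (fold change 1.82), Cd48 (2.02), Slamf6 and Slamf7 (log2 fold changes 0.97 and 0.80). Cd244a and Sh2d1b2, both used by NK cells, had log2 fold changes of 0.052 and 0.056.

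The last list held genes that T cells switch on when the receptor fires, many of which other lung cells also switch on under stress. Of these 12, 0 passed over all genes. In either direction 0 had an unadjusted edgeR p below 0.05, beside 5.77% of genes tested higher and 3.67% lower. Every FTO_OE library was above every WT library for 1 of the 12, beside 7.96% of genes tested. The median log2 fold change was 0.064. Egr2, a transcription factor gene with the smallest p of the list, was at 6.96, 7.45 and 5.95 CPM in FTO_OE lungs and 5.04, 5.94 and 5.39 CPM in WT lungs. Its lowest FTO_OE value and its highest WT value nearly touch. Nr4a2 and Myc had log2 fold changes of -0.41 ± 0.229 and 0.21 ± 0.180 (SE), Egr1 one of 0.32 ± 0.344, and Irf4 and Tnfrsf9 lay at -0.028 and -0.034. These are differences that were not detectable with this spread, which does not show that they are absent.

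**Figure D5:**
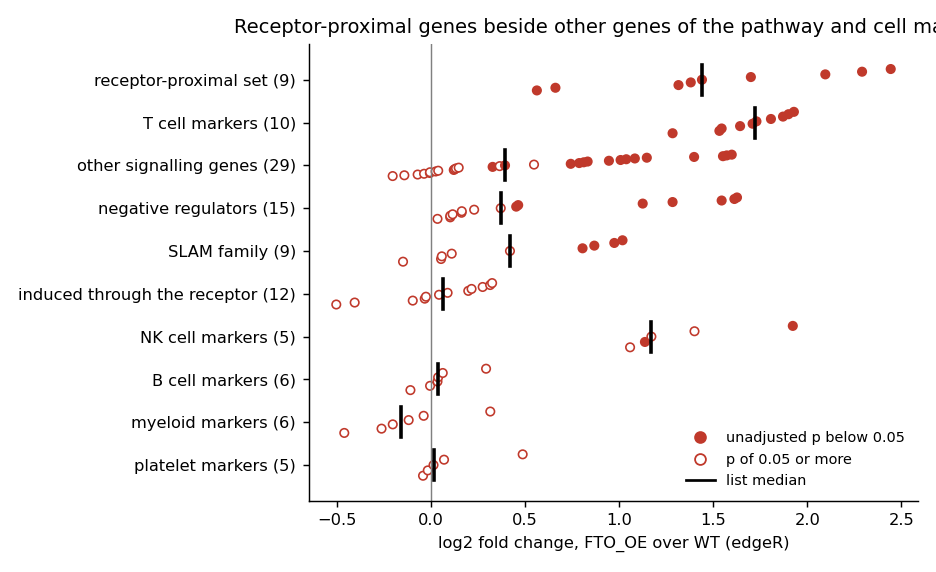
Log2 fold change (FTO_OE over WT, edgeR; horizontal axis) of each gene in 10 lists, with the number of genes in brackets; filled points have an unadjusted p below 0.05 and black bars are list medians. The receptor-proximal set (median 1.44), the T cell markers (1.72) and the NK cell markers (1.17) lie to the right. The genes induced through the receptor (0.064) and the B cell, myeloid and platelet markers lie around 0.

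Markers of the cells that can express these genes moved as follows. The 10 T cell markers, chosen with earlier results of these data known, include Cd5 and Cd6, which are also among the negative regulators. Every FTO_OE library was above every WT library for 10 of 10, against 7.96% of genes tested. Of the 10, 0 passed over all genes, where 0.0765% of genes tested were called higher. The co-receptor genes Cd8a and Cd8b1, which are not in this list, did pass (edgeR adjusted p = 0.0300 and 0.0363). Summed, the T cell markers came to 179.2 to 377.2 CPM in FTO_OE lungs and 59.6 to 89.6 CPM in WT lungs. Their median log2 fold change was 1.72. The 5 NK cell markers summed to 18.1 to 22.1 CPM in FTO_OE lungs and 5.17 to 11.9 CPM in WT lungs, with a median log2 fold change of 1.17. Of the 5, 0 passed over all genes. For 1 of them (Eomes) every FTO_OE library was above every WT library, against 7.96% of genes tested. The sum of the NK cell markers, like all 9 genes of the set, was highest in FTO_OE replicate 3, but the 5 markers differed among themselves. Eomes, a transcription factor gene that some T cells also express, was at 3.10, 5.40 and 13.8 CPM in FTO_OE lungs and 1.52, 1.84 and 2.53 CPM in WT lungs, highest in FTO_OE replicate 3. The receptor genes Ncr1 (3.40, 2.96 and 1.98 CPM), Klrb1c (9.81, 6.48 and 4.15 CPM) and Klra8 (1.78, 1.19 and 0.830 CPM) were lowest in that replicate among FTO_OE lungs, and Klra4 was at 1.07, 2.05 and 1.34 CPM. In WT lungs Ncr1 was at 2.66, 0.788 and 0.550 CPM, Klrb1c at 4.99, 2.26 and 2.04 CPM, Klra8 at 1.52, 0.105 and 0.0550 CPM and Klra4 at 1.19, 0.473 and 0 CPM. B cell markers overlapped between the groups, with sums of 100.9 to 109.5 CPM in FTO_OE lungs and 59.7 to 153.1 CPM in WT lungs. So did platelet markers (103.1 to 185.6 CPM in FTO_OE and 121.4 to 155.8 CPM in WT lungs) and myeloid markers (6062 to 7420 CPM in FTO_OE and 7095 to 9658 CPM in WT lungs). The myeloid sum is mostly Lyz2, and the fold changes of the remaining myeloid markers ran from 0.726 for Marco to 1.24 for Itgam. Mast cell markers, whose sum is mostly Kit, came to 204.5 to 230.4 CPM in FTO_OE lungs and 194.3 to 203.9 CPM in WT lungs. Kit itself had a log2 fold change of 0.14. The other 3 mast cell markers had larger differences at low levels, with fold changes of 2.56 for Cpa3 (1.27, 2.10 and 1.61 CPM in FTO_OE lungs and 0.650, 1.05 and 0.220 CPM in WT lungs), 1.73 for Fcer1a and 1.64 for Ms4a2. Of the 4, 0 passed over all genes, and the median log2 fold change was 0.75. Only 1 (Cpa3) had an unadjusted edgeR p below 0.05 in the higher direction, beside 5.77% of genes tested. In 0 of these lists was a marker at 0 in all libraries. The part of T, NK or mast cell numbers in the levels of the set was not tested.

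Outside the set, the genes whose profile over the 6 libraries lay closest to its median profile included several T cell genes. The measure was the root mean square difference between centred log2 CPM values. Bcl11b, a transcription factor gene of T cells, was closest at 0.104, and near it were Pglyrp2 at 0.123, Sidt1 at 0.128, Gimap3 at 0.146, Sh2d2a at 0.153 and Ubash3a at 0.154. Within the set, Zap70 lay at 0.161, Lat at 0.218 and Ptpn22 at 0.231 from the median profile, and Sh2d1a at 0.610 and Fyn at 0.501 were the farthest. Bcl11b was at 16.1, 19.5 and 29.6 CPM in FTO_OE lungs and 9.16, 7.25 and 6.16 CPM in WT lungs. These genes were picked for their likeness, and their difference between the groups is no separate result.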

How the data were processed

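Lung RNA from 6 libraries was measured. Per the labels' protocols, RNA was extracted with TRIzol and libraries were made with a stranded poly(A) kit. Per the submitters' processing notes, fastp, HISAT2 and StringTie were used; for the program behind the gene table, the genome build and any use of the strand in counting, the sources used here give nothing. The table deposited by the authors holds expected counts, that is estimated reads per gene without scaling to depth; 9.66% to 10.3% of values per library were not whole, and they were rounded. 525 of 57180 rows name no symbol.

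Genes were filtered by filterByExpr, scaled by TMM and tested for group by edgeR's quasi-likelihood test (edgeR 4.0.16, R 4.3.3), without covariates and with Benjamini-Hochberg adjustment over all 16989 genes tested at 0.05. Standard errors and intervals derive from the F statistic. The procedure was run on counts simulated from its own fitted dispersions, in which the changed genes had a mean of at least 50 counts. That run does not decide between the tools compared here. Levels are TMM CPM. Ratios between genes were compared by two-sided exact permutation tests over libraries. limma 3.58.1 and DESeq2 1.42.0 served as alternatives. The 9 genes and the lists were chosen with earlier results of these data known. Named genes were the set, its relatives, for each list the 4 with the smallest p and the 2 nearest a log2 fold change of 0, and the 8 closest profiles with an average log2 CPM of at least 1; some genes that this rule selects are not reported here. Libraries of 1 group differed well beyond counting noise (chi-square per degree of freedom of 27.8 to 48.6), so none was treated as a duplicate. Across the groups, WT replicate 1 and FTO_OE replicate 1 (20.7) and WT replicate 3 and FTO_OE replicate 2 (27.0) were closer than any pair within a group. The remaining pairs across the groups ran from 34.3 to 46.6. Genes that overlap exons of the set in GENCODE M21 had at most 2 counts in a library. Intervals cover the spread between libraries; no molecular identifiers were used. Motifs were searched in RefSeq promoter windows on GRCm38.p6.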

Additional observations from a re-analysis of the deposited data

How the results depend on the processing

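The direction of all 9 genes was kept in each of the 15 alternatives to the edgeR fit, with a median log2 fold change between 1.28 and 1.67, but the number called depended on them. Because the groups did not overlap for any of the 9 genes, leaving out 1 library could hardly have reversed a direction. Of the 9 genes and of all genes, 8 and 287 passed with no filter on low counts, 9 and 424 with DESeq2, 0 and 5 with limma-voom, and 2 and 31 once haemoglobin, immunoglobulin and mitochondrial genes were removed. At a threshold of 0.01, 0 and 1 passed, and at 0.1, 3 and 70, against 1 and 16 in the fit as reported. Leaving out 1 library gave 0 to 3 of the set and 1 to 49 genes in all. RLE, upper-quartile or total-count scaling and a filter at a mean of 50 counts left 1 of the set and 15 to 17 genes. Why the counts differ was not tested. With the replicate number as a block, 0 of the set and 2 genes passed. Same-numbered libraries did not deviate together (correlations of 0.098, -0.26 and -0.26), so the numbers were not taken as pairs. Libraries of different number had correlations from -0.16 to 0.37. The highest were FTO_OE replicate 2 with WT replicate 3 (0.37) and FTO_OE replicate 3 with WT replicate 2 (0.22). Whether such libraries shared a batch was not tested. Relative to CD3, the log2 difference of Lat turned to 0.040 without WT replicate 3 (range -0.27 to 0.040 over the fits without 1 library), and that of Sh2d1a to -0.059 with 0.5 CPM added; the cause was not tested. Sh2d1a and Txk were counted at low depth, 9 to 184 and 27 to 176 counts a library; the share of depth in their spread between libraries was not tested.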
